A study of Mus musculus with 2 samples.

Results

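Glycolysis, glucose uptake and lactate export were examined through 34 genes, taken as every row of the deposited gene and transcript tables whose Ensembl identifier maps to a fixed list of symbols. All 34 symbols had a row in both libraries, out of 43346 Ensembl gene rows. The list holds the enzymes from hexokinase to lactate dehydrogenase with their paralogs, a pair of glucose transporters and a pair of monocarboxylate transporters. It also holds the subunits of the first enzyme of the pyruvate dehydrogenase complex with 3 of the kinases that inhibit it, the PFKFB enzymes, bisphosphoglycerate mutase and the phosphoglucomutases.

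The tissue was limb of mouse embryos, strain B6NCrl, at embryonic day 10.5, with males and females pooled. Replicate 1 pooled the limbs of 69 embryos and replicate 2 those of 51, and the labels name no sorting of cells and no split of forelimb from hindlimb. From each pool, 10 ng of RNA longer than 200 nt was made into a total RNA library with synthetic spike-in RNAs added. There was 1 group of 2 biological replicates and no treatment or genotype contrast. Levels within the tissue are therefore described, and the libraries are set against each other to show how far the pools differ. In a bulk sample, fewer cells of a type and less RNA per cell cannot be told apart.

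Glycolysis splits glucose into pyruvate in the cytosol and yields ATP without oxygen. Lactate dehydrogenase then turns pyruvate into lactate, which regenerates the NAD+ that the Gapdh step needs, and proton-coupled transporters carry lactate out of the cell. Pyruvate can instead enter mitochondria, where the pyruvate dehydrogenase complex commits it to the tricarboxylic acid cycle unless a pyruvate dehydrogenase kinase switches the complex off. Early mouse embryos are known to make much lactate, and several steps have paralogs that in adult animals are typical of muscle, brain, liver or testis.

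Expected counts, the estimated reads per gene, summed to 40509328 in replicate 1 and 43983028 in replicate 2. Counts of the libraries were further apart than sampling alone gives (chi-square per degree of freedom 31.18), so they were kept as 2 replicates. The labels call them biological replicates. Levels are in TPM, which is normalised for transcript length and depth, and a gene was taken as expressed where each library had 1 TPM or more. Limb mesenchyme markers were all expressed (8 of 8, with Msx1 highest at 307 ± 5.85 TPM, mean ± SD, n = 2 as for all such values). Erythroid markers were expressed too (9 of 9), with a summed level of 14938 TPM in replicate 1 and 12533 TPM in replicate 2. Neuron markers summed to 15.6 and 16.0 TPM, heart markers to 10.4 and 15.6 TPM and liver markers to 3.28 and 2.30 TPM.

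The pathway was expressed strongly and almost completely. Of the 34 genes, 33 were expressed, and the neuronal enolase Eno2 was the exception. Together the 33 genes reached 16397 TPM in replicate 1 and 13629 TPM in replicate 2. The 34 genes took 1.91% of gene counts in replicate 1 and 1.52% in replicate 2. Their median level was 57.6 and 59.5 TPM, against 19.9 and 22.4 TPM for the 11853 expressed protein-coding genes, and 25 of the 34 lay above that median. The distribution was steep. Eno1, Ldha, Pkm, Gapdh and Aldoa held 76.3% of the summed level in replicate 1 and 73.6% in replicate 2. In all, 4 genes exceeded 1000 TPM on average and 7 stayed under 10 TPM. In the order of mean levels, 17 pairs of neighbours had overlapping ranges over the libraries and 16 did not. Eno1, Ldha, Pkm and Gapdh, the top of the order, each overlapped the next, and Gapdh stood apart from Aldoa below it. On GRCm38, Eno1 (ENSMUSG00000063524.9) lies at chr4:150236721-150248879, Ldha (ENSMUSG00000063229.10) at chr7:46841475-46855627 and Pkm (ENSMUSG00000032294.12) at chr9:59656368-59679375, all on the plus strand. Gapdh (ENSMUSG00000057666.14) lies on the minus strand at chr6:125161715-125166467.

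**Figure D1:**
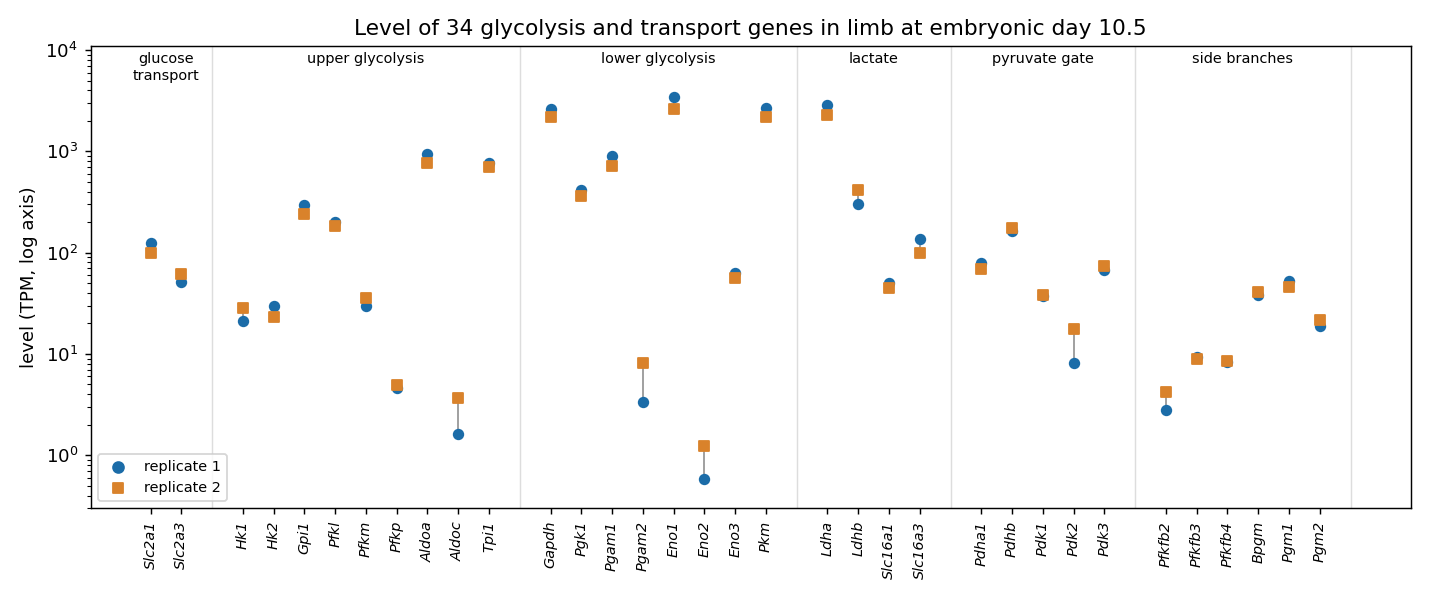
Level of each gene in TPM on a log axis, by place in the pathway, with circles for replicate 1, squares for replicate 2 and a line joining the libraries. The genes span from Eno2 at 0.580 and 1.23 TPM to Eno1 at 3442 and 2616 TPM, and the lines are longest for the low genes Pgam2, Aldoc, Eno2 and Pdk2.

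Both glucose transporters of the list were expressed. Slc2a1, which encodes the widely expressed transporter GLUT1, was at 126 TPM in replicate 1 and 99.0 TPM in replicate 2. Slc2a3, which encodes the high-affinity transporter GLUT3 known from neurons and early embryos, was at 51.1 and 62.2 TPM. Slc2a1 was thus the higher in both libraries, by 2.46-fold and 1.59-fold. Of other transporters on a list of further paralogs, the insulin-responsive Slc2a4 was at 20.6 ± 5.61 TPM, and the liver transporter Slc2a2 had no counts in either library.

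The first 3 steps inside the cell had the lowest summed levels of the pathway. Hexokinases, which trap glucose by phosphorylating it, summed to 51.3 TPM in replicate 1 and 51.5 TPM in replicate 2. Gpi1, the isomerase that follows, was at 296 and 242 TPM. Phosphofructokinases, which catalyse the committed step, summed to 237 and 224 TPM. The liver-type gene Pfkl gave most of this, at 202 and 183 TPM, followed by the muscle-type Pfkm at 30.0 and 35.6 TPM and the platelet-type Pfkp at 4.62 and 4.99 TPM. The aldolase step, which cleaves the hexose, came almost wholly from Aldoa at 943 and 772 TPM. Tpi1, which interconverts the products of that cleavage, was at 771 and 697 TPM.

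Most steps from Gapdh onward were more abundant. Gapdh, the oxidising step, was at 2596 TPM in replicate 1 and 2172 TPM in replicate 2. Pgk1, the first ATP-yielding enzyme, was at 418 and 367 TPM and was the lowest of these steps. The phosphoglycerate mutase Pgam1 was at 894 and 719.7 TPM. Enolase summed to 3506 and 2674 TPM, and Eno1, the ubiquitous form, made up nearly all of it at 3442 and 2616 TPM. The muscle enolase Eno3 was at 63.1 and 56.8 TPM. Eno2 was at 0.580 and 1.23 TPM, from 29 and 59 counts. In both libraries this lay below the interval that the table gives around its posterior mean, 1.00 to 2.25 TPM in replicate 1 and 1.51 to 2.95 TPM in replicate 2. The deposited TPM lay outside the interval for 12 of the 34 genes in replicate 1 and 11 in replicate 2. Pkm, which encodes pyruvate kinase, was at 2658 and 2200.0 TPM.

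**Figure D2:**
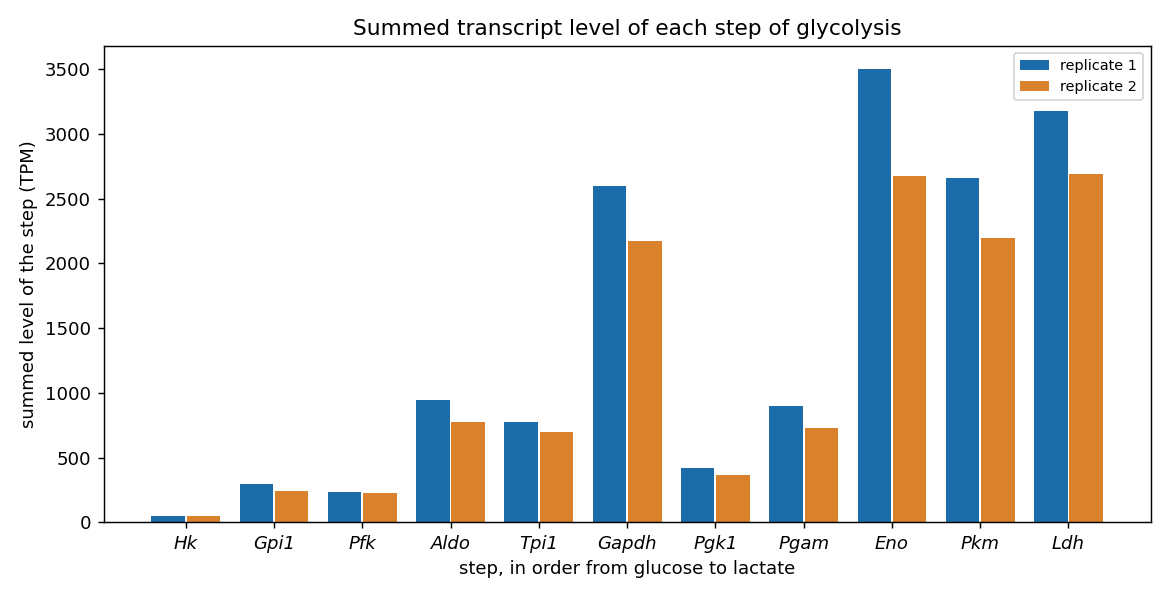
Summed TPM of the genes of each step in order from hexokinase to lactate dehydrogenase, with 1 bar per library. Hexokinase is the lowest step at 51.3 and 51.5 TPM and enolase the highest in replicate 1 at 3506 TPM, whereas in replicate 2 lactate dehydrogenase at 2691 TPM lies beside enolase at 2674 TPM.

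Genes for making and for exporting lactate were both expressed, the former at higher levels. Ldha, the form that favours lactate production, was at 2871 TPM in replicate 1 and 2275 TPM in replicate 2. Ldhb, the form typical of heart, was at 304 and 416 TPM. Slc16a3, which encodes the lactate exporter MCT4, was at 138 and 100 TPM. Slc16a1, which encodes MCT1, was at 49.8 and 44.9 TPM. The chaperones that bring these transporters to the cell surface were measured as well, with Bsg at 547 ± 10.9 TPM and Emb at 60.2 ± 5.94 TPM. Slc16a7, which encodes MCT2, was at 2.08 ± 0.311 TPM.

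At the entry to mitochondria, the subunits of pyruvate dehydrogenase differed in level. Pdhb, the beta subunit, was at 163 and 174 TPM, and Pdha1, the X-linked alpha subunit, was at 78.4 and 68.5 TPM. The kinases that inactivate the complex summed to 113 TPM in replicate 1 and 129.6 TPM in replicate 2. Pdk3 led at 67.1 and 73.2 TPM, then Pdk1 at 37.3 and 38.6 TPM and Pdk2 at 8.16 and 17.8 TPM, while Pdk4, known from starved muscle and heart, was at 0.650 ± 0.311 TPM. The phosphatases that switch the complex back on were lower than Pdk1 and Pdk3, with Pdp2 at 14.8 ± 0.530 TPM and Pdp1 at 6.16 ± 1.15 TPM. On its coding transcript alone, however, Pdk1 was at 16.1 ± 0.834 TPM, close to the gene level of Pdp2. The mitochondrial pyruvate carrier genes Mpc1 and Mpc2 were at 69.7 ± 2.10 and 63.3 ± 6.64 TPM.

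The side branches were modest. The PFKFB enzymes set the level of the fructose bisphosphate that activates phosphofructokinase, and they summed to 20.4 TPM in replicate 1 and 21.6 TPM in replicate 2. Pfkfb3 was at 9.35 and 8.88 TPM, Pfkfb4 at 8.25 and 8.46 TPM and Pfkfb2 at 2.82 and 4.25 TPM. Bpgm, whose product loosens oxygen from haemoglobin in red cells, was at 38.4 and 40.8 TPM. The phosphoglucomutases, which link glycolysis to glycogen, were led by Pgm1 at 52.1 and 46.1 TPM, with Pgm2 at 18.7 and 21.9 TPM.

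Paralog choice was clear in most families. An order between paralogs was called where each library kept the deposited TPM intervals of the pair apart and both gave the same gene as the higher. By this rule 17 of 19 pairs were called. In 3 families the leading gene held over 95% of the summed TPM in both libraries. Aldoa held 99.8% of the aldolase level in replicate 1 and 99.5% in replicate 2, with the brain-type Aldoc at 1.63 and 3.65 TPM. Pgam1 held 99.6% and 98.9% against the muscle-type Pgam2, which was at 3.39 and 8.06 TPM. Eno1 held 98.2% and 97.8%. Pfkl held 85.4% and 81.9% of phosphofructokinase, and Ldha held 90.4% and 84.6% of lactate dehydrogenase. Other families were mixed. Slc2a1 held 71.1% and 61.4% of the glucose transporter pair, Slc16a3 held 73.4% and 69.0% of the lactate transporter pair, and Pgm1 held 73.6% and 67.8% of the phosphoglucomutases. Pdk3 held 59.6% and 56.5% of the 3 kinases.

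Hexokinase was the family where the libraries disagreed on order. Hk2, the insulin- and hypoxia-responsive form, was at 30.0 TPM in replicate 1 and 23.1 TPM in replicate 2. Hk1, the housekeeping form, was at 21.3 and 28.4 TPM. Hk2 was therefore 1.41-fold above Hk1 in replicate 1 and at 0.815 of it in replicate 2. The deposited intervals did not overlap in either library, at 27.1 to 32.0 against 21.4 to 24.2 TPM in replicate 1 and 20.7 to 24.9 against 28.2 to 31.3 TPM in replicate 2, so the pools gave opposite orders and no order was called. The level of Hk2 also rested on how its transcripts were annotated. A noncoding transcript of 594 nt, Hk2-202, took 56.8% and 55.5% of the TPM of the gene from 10.7% and 10.2% of its counts, and it lies within the last exon of the coding transcript Hk2-201 (chr6:82725025-82727454 on GRCm38, minus strand). With protein-coding transcripts alone, Hk2 was at 13.0 and 10.3 TPM and Hk1 at 21.03 and 28.1 TPM, with Hk1 the higher in both libraries. The other pair with no order called was Pfkfb3 and Pfkfb4, whose ratio was 1.13 in replicate 1 and 1.05 in replicate 2. With protein-coding transcripts alone, Pfkfb3 was at 7.43 and 7.13 TPM, below Pfkfb4 at 8.25 and 8.46 TPM.

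**Figure D3:**
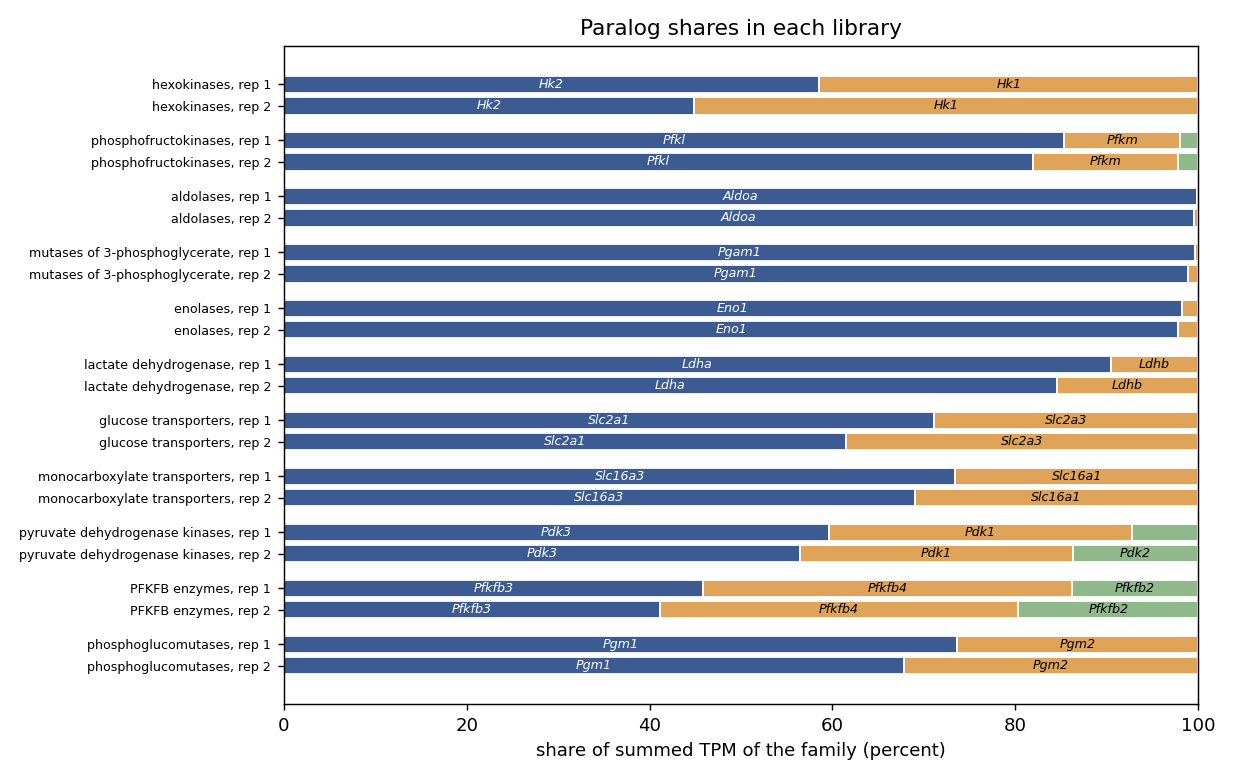
Share of the summed TPM of each paralog family held by each gene, in percent, with 1 bar per library and the gene with the highest mean level on the left. Aldoa, Pgam1 and Eno1 nearly fill their bars, Hk1 goes from 41.5% to 55.1% and so passes Hk2, and Ldha goes from 90.4% to 84.6%.

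Of 23 genes on a list of further paralogs and related genes, 9 were expressed. Adpgk, the ADP-dependent glucokinase, was the highest at 35.7 ± 0.573 TPM, followed by Pgm3 at 29.8 ± 1.90 TPM and Slc2a4. The testis form Pgk2 had no counts in either library. Pklr, which encodes the liver and red cell pyruvate kinase, was at 3.70 and 2.99 TPM, against 2658 and 2200.0 TPM for Pkm. In gluconeogenesis, which runs the pathway backwards, 3 of 7 genes were expressed, namely G6pc3 at 34.7 ± 0.0212 TPM, Pcx at 14.4 ± 1.70 TPM and Pck2 at 11.9 ± 1.02 TPM. Fbp2 reached 0.220 ± 0.141 TPM, Fbp1 0.0600 ± 0.0141 TPM, and Pck1 and G6pc had at most 1 count in a library.

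Pkm makes different enzymes by including either exon 9 or exon 10, which exclude each other. The exon 9 form M1 is typical of adult muscle and brain, and the exon 10 form M2 of embryonic and proliferating cells. The exons lie next to each other on the plus strand of chromosome 9 in GRCm38, exon 9 at chr9:59675029-59675195 and exon 10 at chr9:59675568-59675734, and each is 167 nt long. They are shown here because reads over them are what tells the forms apart, with capitals for the 64 bases that differ in an alignment without gaps. The other 103 bases, 61.7%, are the same.
Pkm exon 9 (M1): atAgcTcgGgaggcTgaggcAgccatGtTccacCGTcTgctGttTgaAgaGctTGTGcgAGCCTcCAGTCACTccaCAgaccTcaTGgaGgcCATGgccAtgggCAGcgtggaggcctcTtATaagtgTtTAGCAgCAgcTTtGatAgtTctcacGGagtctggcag
Pkm exon 10 (M2): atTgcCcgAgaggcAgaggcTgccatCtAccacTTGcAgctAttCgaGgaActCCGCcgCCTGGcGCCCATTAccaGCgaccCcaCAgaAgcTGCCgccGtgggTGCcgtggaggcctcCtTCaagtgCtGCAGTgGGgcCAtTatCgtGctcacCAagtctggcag
The tables hold 1 transcript of each form, both of 2432 nt. The M2 transcript Pkm-201 took 98.19% of the Pkm level in replicate 1 and 98.11% in replicate 2, from 162325 and 139880 counts. The M1 transcript Pkm-202 took 1.81% and 1.89%, from 2990 and 2692 counts. The libraries thus differed by 0.0796 percentage points, and the M2 share was 98.15% ± 0.0563. In GENCODE M21, from which the exons were read, Pkm-202 is 2041 nt long and its first and last exons are shorter than those of Pkm-201. The forms share most of their sequence, so the counts of each form are estimates that share out the common reads.

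Factors known to repress exon 9 were abundant. Hnrnpa1 was at 1539.9 ± 109 TPM, Hnrnpa2b1 at 976 ± 109 TPM and Ptbp1 at 411 ± 4.12 TPM. Srsf3, known to favour exon 10, was at 1018 ± 8.06 TPM. The neuronal paralog Ptbp2 was at 84.4 ± 9.45 TPM and Rbm4, reported to favour exon 9, at 77.8 ± 9.64 TPM.

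Most other members used 1 transcript. Across 219 transcripts of the 34 genes, the leading transcript held over 90% of its gene's TPM in both libraries for 20 genes. In 3 genes the leading transcript was not protein-coding. Gapdh-208, of 483 nt, took 50.4% and 50.6% of Gapdh TPM but 23.2% and 23.3% of its counts, and its exons lie within those of the coding transcript Gapdh-203 of 1420 nt. On protein-coding transcripts alone, Gapdh was at 1156 ± 146 TPM in place of 2384 ± 299.6 TPM, below Eno1, Ldha and Pkm. In Eno2 the leading transcript was a retained intron form, Eno2-203. In Hk2 it was the short transcript described above. Pdk1 was also split, with 42.6% of its TPM on the coding transcript Pdk1-201, which left 16.1 ± 0.834 TPM.

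Coding transcripts of some members shifted between the pools. The Pfkfb3 transcript ENSMUST00000114846.4 was at 26.5% of Pfkfb3 TPM in replicate 1 and 45.7% in replicate 2, from 299 and 512 counts, but at 21.2% and 31.0% by posterior mean TPM. Pfkp-201 held 15.3% and 31.2% of Pfkp, from 48.5 and 112 counts, but 10.5% and 19.0% by posterior mean TPM. Slc16a3-201 held 47.8% of Slc16a3 counts in replicate 1 and 56.3% in replicate 2, and Slc16a3-202 held 44.5% and 35.8%. By TPM, Pfkm-202 held 60.7% and 52.3% of Pfkm, with Pfkm-201 at 39.3% and 47.7%. By posterior mean TPM, Pfkm-202 held 56.5% and 52.4%, a smaller shift. Eno3-201 held 74.8% and 68.7% of Eno3 by TPM, and 69.2% and 64.3% by posterior mean TPM. These shares are estimates for transcripts that overlap, and their error beyond the 2 libraries is not known.

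Several members have near-identical copies in the genome, so that reads can be divided among them. The transcript of each member with the highest mean count was searched for copies, which for Gapdh was Gapdh-203. Copies with at least 95% identity over at least 200 bases numbered 80 for 8 members, and 78 were pseudogenes. Gapdh alone had 71, and their counts came to 6.44% of Gapdh counts in replicate 1 and 6.95% in replicate 2. For Pgk1 the copies came to 15.3% and 12.5%, nearly all on the pseudogene Pgk1-rs7 with 2849 and 2201 counts, which is identical to Pgk1 over 1255 bases. Eno1 had the pseudogene Gm4735, with 2566 and 2453 counts, and the gene Eno1b, with 727 and 587 counts. Together these came to 1.90% and 2.21% of Eno1. Pgam1-ps2 had 591 and 918 counts, or 1.43% and 2.65% of Pgam1, and the Gapdh pseudogene Gm13394 had 464 and 563. Whether such counts arise from the copies or from the parent genes was not tested. With the copies added, the shares of Pgam1, Eno1 and Ldha in their families moved by less than their SD over the libraries. The other paralog families had no copies, so their shares could not move. Gapdh and Pgk1 belong to no paralog family here, so shares do not show what the copies do to them.

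Promoters were read from RefSeq for GRCm38.p6, as the 250 bases before each annotated start. Of the 34 members, 33 had a window, in 49 windows in all. The motif ACGTG, searched on both strands and merged where matches overlap, is the core of the site bound by hypoxia-inducible factors, and it also lies within CACGTG, the E-box known to bind Myc and Max. At least 1 match lay in 21 of 49 member windows (42.9%), against 16.6% of 32851 windows of all genes. By gene this was 17 of 33 members (51.5%) against 18.5% of 27025 genes. Member windows also held more CpG, with a median of 13 against 6, and among windows with at least 10 CpG the shares were 54.5% and 24.4%. CACGTG itself lay in 12.2% of member windows and 6.02% of all windows. These are matches of letters, with no binding measured.
The 5 members with more than 1 match in a window are shown 5′ to 3′ on the strand of the gene, ending at the base before the start, with matches in capitals. Such windows were found in 2.28% of all genes.
Ldha (chr7:46845554-46845803, plus strand): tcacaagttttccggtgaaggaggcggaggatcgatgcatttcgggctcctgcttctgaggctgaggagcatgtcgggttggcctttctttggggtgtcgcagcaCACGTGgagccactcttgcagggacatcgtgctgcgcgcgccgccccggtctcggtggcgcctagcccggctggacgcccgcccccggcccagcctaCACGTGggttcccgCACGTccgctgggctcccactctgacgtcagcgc
Pgk1 (chrX:106186850-106187099, plus strand): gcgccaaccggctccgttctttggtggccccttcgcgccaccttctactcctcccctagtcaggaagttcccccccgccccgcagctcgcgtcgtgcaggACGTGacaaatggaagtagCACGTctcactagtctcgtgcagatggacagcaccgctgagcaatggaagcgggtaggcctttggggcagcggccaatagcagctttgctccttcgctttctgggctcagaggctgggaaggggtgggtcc
Slc16a3 (chr11:120948817-120949066, plus strand): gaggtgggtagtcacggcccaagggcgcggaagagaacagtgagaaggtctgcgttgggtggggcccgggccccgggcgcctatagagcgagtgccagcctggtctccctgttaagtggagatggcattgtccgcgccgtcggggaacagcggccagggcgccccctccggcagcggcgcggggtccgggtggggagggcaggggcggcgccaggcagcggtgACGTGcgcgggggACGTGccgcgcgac
Hk2 (chr6:82774455-82774704, minus strand): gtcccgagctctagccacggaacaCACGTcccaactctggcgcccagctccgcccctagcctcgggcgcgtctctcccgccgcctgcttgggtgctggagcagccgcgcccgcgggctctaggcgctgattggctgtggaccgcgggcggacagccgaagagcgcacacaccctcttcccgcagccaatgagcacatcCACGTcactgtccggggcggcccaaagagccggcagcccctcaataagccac
Pgm1 (chr4:99929201-99929450, plus strand): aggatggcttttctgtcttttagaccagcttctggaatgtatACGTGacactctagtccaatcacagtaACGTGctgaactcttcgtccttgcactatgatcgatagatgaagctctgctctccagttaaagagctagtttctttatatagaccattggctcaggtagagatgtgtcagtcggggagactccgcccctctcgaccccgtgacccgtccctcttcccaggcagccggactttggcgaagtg
Ldha holds 3 matches, whose first bases lie at -145, -48 and -34 from the start, the first 2 as CACGTG. In Pgk1 they lie at -150 and -131, and in Slc16a3 at -27 and -14. Pkm had 1 match at -75, Pgam1 1 at -114, Slc2a1 1 at -36 and Slc16a1 1 at -200. No match lay in the windows of Eno1, Gapdh, Gpi1, Tpi1, Pfkl or Ldhb.

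The members lie on 15 chromosomes, with 7 on chromosome 6, 5 on chromosome 11 and 3 on the X chromosome. On chromosome 6, Eno2 (chr6:124760053-124769673), Tpi1 (chr6:124810586-124814296) and Gapdh (chr6:125161715-125166467) lie on the same strand, with 40.9 kb between Eno2 and Tpi1 and 347.4 kb between Tpi1 and Gapdh. Their levels were 0.905 ± 0.460, 734 ± 52.6 and 2384 ± 299.6 TPM.

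The pools differed in the members' levels, and this was measured as the log2 ratio of CPM (counts scaled to equal library size), replicate 2 minus replicate 1, after TMM scaling. With 1 library per pool no test of the pools is possible, so a fixed size was used, a 1.5-fold difference among genes whose counts averaged at least 100, as those of 33 members did. The 95% exact binomial intervals given with these differences cover counting error only: the reads carry no molecular identifiers and are not independent molecules. Past 1.5-fold were 5 of 33 members (15.2%), against 6.33% of the 12256 genes measured this way. Higher in replicate 2 were 4 (background 4.71%) and lower was 1 (background 1.62%). These counts are small, and 3 of the 4 higher members were below 10 TPM on average.

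Pgam2 had 67 counts in replicate 1 and 166 in replicate 2, a log2 difference of 1.11 (0.69 to 1.54). Aldoc had 70 and 162 counts, a difference of 1.01 (0.60 to 1.44). Pdk2 had 446 and 963 counts, a difference of 0.91 (0.75 to 1.08), and Pfkfb2 had 182 and 327, a difference of 0.65 (0.38 to 0.92). All 4 were minor paralogs of their families. The member past 1.5-fold lower was the lactate exporter Slc16a3, with 7540 and 5663 counts and a difference of -0.61 (-0.66 to -0.56). It was past 1.5-fold under TMM and DESeq2 scaling only, since the ratio of deposited TPM gave -0.46 and scaling to spike-ins -0.36. The 4 higher members were past 1.5-fold under each scaling, but the deposited TPM and spike-in scalings also shift the median of all genes upward.

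By any amount, 24 of 33 members were lower in replicate 2 under TMM, against a background of 50.2% of genes. By deposited TPM 18 were lower, against 28.3% of all genes, and by spike-in scaling 17, against 13.5%. The most abundant members other than Ldhb were among them. Eno1 was lower by a log2 difference of -0.54 (-0.55 to -0.53), Ldha by -0.48, Pgam1 by -0.45, Aldoa by -0.43, Gpi1 by -0.42, Pkm by -0.41 and Gapdh by -0.39. The glucose transporter Slc2a1 differed by -0.49 and Hk2 by -0.48. Abundant genes of all kinds were lower in replicate 2, however. At a mean of 200 TPM or more, 9 of 10 members were lower, beside 85.7% of 835 genes at that level. The median difference at that level was -0.42 for the members and -0.18 for all genes. Level moved with the difference over all genes: the share that were lower went from 33.6% at 1 to 10 TPM to 46.7% at 10 to 50 TPM and 69.4% at 50 to 200 TPM.

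Over all 33 members the median difference was -0.26, and over all genes -0.00. The scaling shifted these together. The members' median was -0.14 for the ratio of deposited TPM, where the median of all genes was 0.13, and -0.01 for scaling to spike-ins, where it was 0.25. TMM, DESeq2 and spike-in scaling add a constant to every gene, so the members' median relative to all genes is -0.26 in each by construction, and by deposited TPM it was -0.27. In 7 genes the direction depended on the scaling, namely Pdhb, Pdk3, Bpgm, Pdk1, Pfkfb3, Pfkfb4 and Pfkp, all of them among the 24 that were lower by TMM.

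Against the main trend, Ldhb had 9750 counts in replicate 1 and 13901 in replicate 2, a difference of 0.31 (0.28 to 0.35), and was the exception among the 10 most abundant members. Hk1 was also higher, by 0.26 (0.18 to 0.34), as were Slc2a3 by 0.17 (0.12 to 0.22) and Pfkm by 0.11 (0.03 to 0.19). In the 9 families with a called leading gene, that gene's share was smaller in replicate 2 in 9 of 9, by TPM, by posterior mean TPM, by counts and on coding transcripts alone. A leading gene is by definition the more abundant of its family, and level moved with the difference over all genes as described. Hexokinase and the PFKFB enzymes, where no leading gene was called, are left out of this count.

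**Figure D4:**
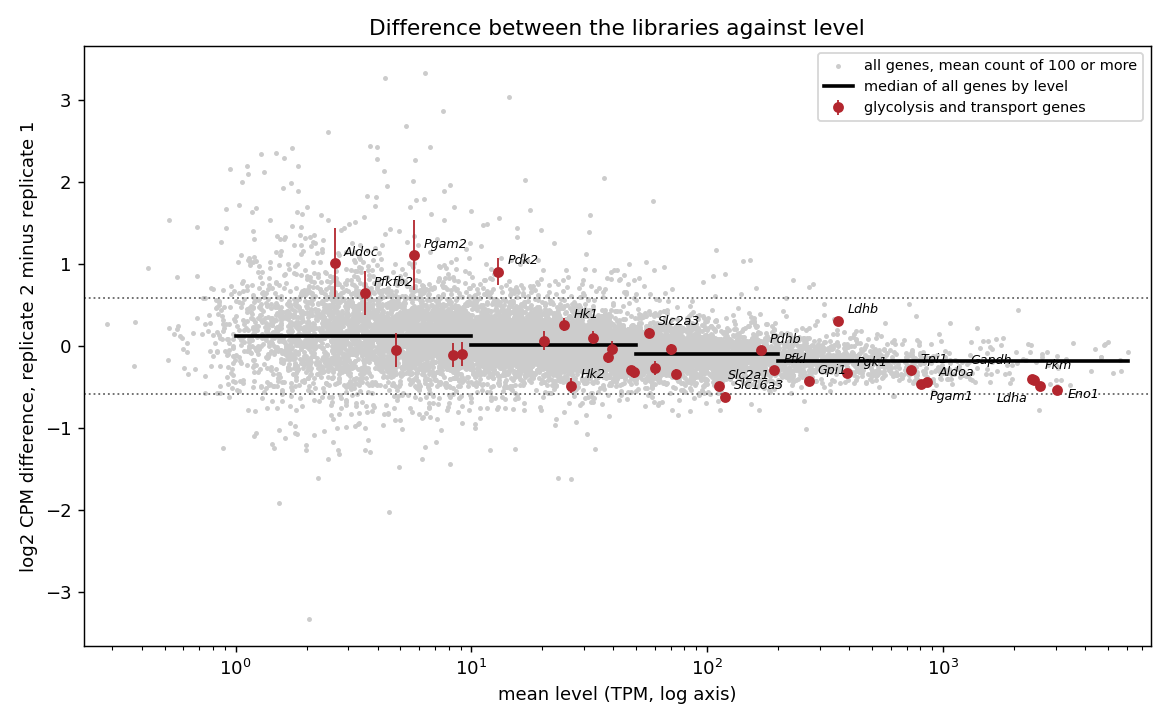
Difference between the libraries as log2 CPM, replicate 2 minus replicate 1, against mean TPM on a log axis for all genes averaging at least 100 counts (grey) and for 33 members (red, with 95% counting intervals), with black bars for the median of all genes by level and dotted lines at 1.5-fold. The black bars step down from 0.13 at 1 to 10 TPM to -0.18 at 200 TPM or more, and Eno1, Ldha, Pkm and Gapdh lie below them while Ldhb lies above.

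Cell type markers also moved between the pools. Erythroid markers were lower in replicate 2 in 9 of 9 genes, with a median of -0.39. Over all genes the share that were lower was 85.7% at 200 TPM or more, where the listed globin genes lie. It was 46.7% at 10 to 50 TPM and 33.6% at 1 to 10 TPM. Skeletal muscle markers were higher in 5 of 6 genes tested, with a median of 1.65 and a summed level of 28.0 TPM in replicate 1 and 78.8 TPM in replicate 2, while the mature muscle gene Ckm had 1 count in each library. Cartilage markers were higher in 3 of 3 tested, with a median of 0.86 and a summed level of 166 and 367 TPM. The 5 muscle and 3 cartilage genes were past 1.5-fold higher, beside 4.71% of all genes. Limb mesenchyme markers had a median of 0.24 and summed to 888 and 1073 TPM. Among them the hindlimb genes Pitx1 and Tbx4 differed by 0.79 and 0.94, both past 1.5-fold, and the forelimb gene Tbx5 by -0.26. Surface ectoderm markers went both ways, with Krt8 at -0.67, Krt18 at -0.70, Epcam at -0.28 and Krt14 at 2.03, and summed to 123 and 115 TPM. Endothelial markers had a median of -0.07 and summed to 138 and 144 TPM. Among members linked to these tissues, the muscle-type Pgam2 and Pfkm were higher in replicate 2 and the muscle enolase Eno3 was lower, by -0.26 (-0.35 to -0.18). Bpgm, known from red cells, differed by -0.03 (-0.12 to 0.06) under TMM. Outside the 34 members, the red cell and liver gene Pklr differed by -0.82 (-1.10 to -0.53). The part of these cell types, or of the mix of forelimb and hindlimb, in the members' differences was not tested.

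Neighbouring pathways were expressed nearly in full. All 16 genes of the tricarboxylic acid cycle were expressed, with a median level of 143 TPM, and 15 were lower in replicate 2 by a median of -0.12, with 0 past 1.5-fold. At their levels most genes were lower, 69.4% at 50 to 200 TPM and 85.7% from 200 TPM, with medians of -0.09 and -0.18. Mdh2 led at 510.4 ± 16.0 TPM, followed by Sdhb at 362 ± 5.97 TPM and Sdhd at 278 ± 7.62 TPM, and Suclg2 was lowest at 57.5 ± 2.57 TPM. The pentose phosphate pathway, which branches from the hexokinase product, had 7 of 7 genes expressed at a median of 139 TPM, with a median difference of -0.16. Its entry enzyme G6pdx was at 45.5 ± 0.785 TPM, Pgls at 211 ± 12.2 TPM and Rpia at 1.89 ± 0.0354 TPM. The 7 genes of pyruvate entry had a median of 51.9 TPM and a median difference of -0.06.

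Regulators known to act on glycolysis genes were present. Hif1a, the oxygen-regulated factor, was at 72.0 ± 9.57 TPM, its partner Arnt at 31.7 ± 6.74 TPM and the paralog Epas1 at 2.41 ± 0.0354 TPM. Of the oxygen sensors that mark them for breakdown, Egln2 was at 80.8 ± 1.85 TPM, Egln1 at 8.56 ± 0.198 TPM and Egln3 at 2.40 ± 0.0849 TPM, and Vhl was at 35.1 ± 5.21 TPM. None of these 8 genes, Hif1an at 44.3 ± 2.18 TPM included, was past 1.5-fold. Of 14 hypoxia-induced genes outside glycolysis, 12 were expressed, led by Bnip3l at 296 ± 22.2 TPM, Bnip3 at 92.9 ± 2.02 TPM and Higd1a at 53.6 ± 5.04 TPM, while Car9 was lowest at 0.960 ± 0.156 TPM. Of the 11 with 100 counts or more on average, Ddit4 was the 1 past 1.5-fold, with 1074 and 2204 counts, a difference of 0.84 (0.73 to 0.95). Below that count, Ndufa4l2 had 58 and 22 counts, a difference of -1.60 (-2.38 to -0.87).

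Among Myc factors, which are known to drive glycolysis genes, Mycn was highest at 201 TPM in replicate 1 and 129 TPM in replicate 2, a difference of -0.78 (-0.82 to -0.74). Myc was at 49.5 and 36.4 TPM (-0.59) and their partner Max at 9.42 and 6.88 TPM (-0.59). Under TMM these 3 of 4 listed genes were past 1.5-fold lower in replicate 2, beside 1.62% of all genes. Myc and Max passed the log2 cut of 0.585 narrowly. The calls of all 3 held under DESeq2 scaling. By deposited TPM, Mycn alone of them was past 1.5-fold lower, and by spike-in scaling none of them was. The deposited TPM and spike-in scalings also shift the median of all genes upward, to 0.13 and 0.25. The part of the Myc factors in the members' differences was not tested. Mycl, at 21.3 and 24.0 TPM, differed by 0.01 (-0.08 to 0.10).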

How the data were processed

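Per the labels, total RNA was sequenced from 2 limb pools. The authors' gene and transcript tables give expected counts, TPM, a posterior mean TPM with interval bounds (treated as a score, since their level is not stated in the tables) and the percent of each gene's TPM taken by each transcript. Per the sample text files deposited with the series, the tables use mm10 and GENCODE M4, and the libraries were quantified separately. The names of the aligner and quantifier were not given in the sources used here. Whether counting used strand is likewise not stated.

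GENCODE M21 on GRCm38 gave names and coordinates, GRCm38 being the assembly of mm10, matched by identifier without version. Rows that name no Ensembl gene and no spike-in held 0.000170% and 0.000134% of counts, and they and the spike-ins stayed out of library sizes. Expected counts were rounded and scaled by TMM in edgeR 4.0.16 (R 4.3.3). DESeq2 1.42.0 size factors, the TPM ratio and spike-in counts were other scalings. Copies were sought with BLAST 2.17.0. Tables, intervals and plots were made with scipy 1.17.1, pandas 2.3.3, matplotlib 3.10.9 and numpy 2.4.6 in Python 3.11.15, and the difference script was tested on simulated data. The members and lists were chosen with earlier results of these data known. All members could be named, every gene of lists with 8 or fewer genes, and in longer lists the 3 highest, the lowest and those past 1.5-fold. Of marker lists the highest and any with no counts could be named. Pdk4, Slc16a7, Ckm, Pitx1, Tbx4, Tbx5, Krt8, Krt18, Krt14, Epcam and Ndufa4l2 lie outside that rule and were chosen after their values were seen, as were the level bins, the CpG-rich windows and the use of protein-coding transcripts alone.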

Additional observations from a re-analysis of the deposited data

How the results depend on the processing

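The summed level of 15013 TPM and the M2 share of Pkm kept their values within 1 SD under the alternatives tried. The leading paralog stayed the same in every family other than hexokinase and the PFKFB enzymes. Values that moved were these. TPM rescaled over Ensembl rows alone gave a median level of 63.8 TPM in place of 58.5. Shares by expected counts, which are not per length, were 42.0% for Hk2, 86.8% for Pfkl, 98.6% for Eno1, 56.7% for Slc2a1, 54.0% for Slc16a3 and 47.2% for Pdk3. On protein-coding transcripts alone, a choice made after seeing the data, they were 32.5% for Hk2 and 71.4% for Pdk3. On those transcripts Pfkfb4 was above Pfkfb3 in both libraries. The 5 members past 1.5-fold became 16 at a fold of 5/4 and 2 at a fold of 2, and 4 to 6 otherwise. The median difference of -0.26 became -0.14 by deposited TPM, -0.010 by spike-ins and -0.20 with no filter on counts, where Eno2 enters. For the M2 share the sole alternative was posterior mean TPM from the same quantification, since Pkm had no further transcript to leave out.

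Leaving out each library in turn gave 13629 to 16397 TPM for the sum, 57.6 to 59.5 TPM for the median, and 98.11% to 98.19% for M2. The shares of the genes with the highest mean ranged from 44.9% to 58.5% for Hk2, 81.9% to 85.4% for Pfkl, 99.5% to 99.8% for Aldoa, 98.9% to 99.6% for Pgam1, 97.8% to 98.2% for Eno1 and 84.6% to 90.4% for Ldha. They ranged from 61.4% to 71.1% for Slc2a1, 69.0% to 73.4% for Slc16a3, 56.5% to 59.6% for Pdk3, 41.1% to 45.8% for Pfkfb3 and 67.8% to 73.6% for Pgm1. A difference between libraries has no value without either of them. No paired analysis was possible because there is 1 group. Depth limits Eno2, Pgam2 and Aldoc, which had between 29 and 166 counts.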
